A study of Mus musculus with 16 samples.

Results

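Hox genes encode the homeodomain transcription factors that give each level of the body axis its identity. The 33 Hox genes described here were taken from a series on the adult mouse intervertebral disc. They are the genes whose symbol is Hox, a cluster letter from a to d and a paralogue number, each read from the probe set with the highest mean over 16 arrays, and they stand among 19505 genes with a symbol. HoxA gave 8 genes (chromosome 6), HoxB 9 (chromosome 11), HoxC 9 (chromosome 15) and HoxD 7 (chromosome 2).

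In vertebrates the Hox genes lie in clusters, and along each cluster the genes of low paralogue number act near the head and those of high number act towards the tail. In mice, loss of whole paralogue groups changes vertebral identity: the paralogues numbered 10 suppress ribs in the lumbar region and those numbered 11 shape the sacrum. Adult skeletal tissues keep part of this pattern. The disc has 2 compartments of different origin, the gel-like nucleus pulposus (NP), which descends from the notochord, and the fibrous annulus fibrosus (AF), which descends from the sclerotome of the somites.

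The study removed Sox9, the transcription factor that directs cartilage genes, and measured RNA from NP and AF on Affymetrix arrays. The groups were NP cKO, NP CTR, AF cKO and AF CTR, with 4 arrays each from 8 female mice aged 3 to 4 months. The cKO mice were AcanCreERT2 Sox9fl/fl, so that a tamoxifen-inducible Cre driven by the aggrecan gene acts in cells that express aggrecan, and they received tamoxifen on 2 consecutive days. The CTR mice were Sox9fl/fl with no Cre named. All 8 animals therefore carried loxP-flanked Sox9, and the labels do not say that the CTR mice were injected, so the drug and the deletion cannot be told apart. Discs were collected when 5 days had passed since the initial dose, NP and AF of 1 animal gave 1 array each, and replicate numbers stand for separate animals. Lumbar and tail discs of each animal were pooled for RNA, so a gene's level cannot be assigned to either region.

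Values are log2 signals, and 1 unit is a doubling of signal. A mean under 6.6 is called background here. That line lies just above the median of 5222 negative control probe sets, which ran from 6.14 to 6.59 per array, but the negative controls themselves spread from a 5th percentile of at least 3.71 to a 95th percentile of up to 10.78. A mean over the line is therefore no proof of expression, and levels of different genes are not set against each other, since each probe set has its own brightness. Sox9 averaged 9.75 ± 0.25 in NP cKO and 16.27 ± 0.36 in NP CTR, and 12.24 ± 0.65 in AF cKO and 16.92 ± 0.51 in AF CTR (SD, n = 4 each), so it was lower in the mice labelled cKO in both tissues. Of 12 NP and notochordal markers measured, 9 differed between NP cKO and AF cKO at an adjusted p under 0.05 in limma (25.9% of all probe sets did). Of these, 8 were higher in NP (13.3% of all). Between NP CTR and AF CTR 8 differed (20.1% of all), 7 of them higher in NP (9.96% of all). The mean signal of the 12 was still high in both tissues, at 12.86 to 12.98 in NP cKO, 13.03 to 13.22 in NP CTR, 11.54 to 12.38 in AF cKO and 11.67 to 12.36 in AF CTR. The 13 markers of annulus, tendon and sclerotome averaged 6.96 to 8.37 in NP cKO, 6.82 to 7.31 in NP CTR, 11 to 12.45 in AF cKO and 10.75 to 11.77 in AF CTR. The number of arrays limits the precision.

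Promoter sequence was available for 17 of the 33 genes, in 19 windows of 250 bases before the start (RefSeq, GRCm38.p6). The windows below, shown 5′ to 3′, belong to 2 genes that were higher in NP than in AF of CTR mice, Hoxa2 and Hoxd10, and 2 that were lower, Hoxa11 and Hoxc4. The choice was limited to genes with a window, and Hoxc12, Hoxc6 and Hoxc10, whose differences were largest, had none. Hoxc4 lay under 6.6, the line called background here, in every group. Capitals mark matches, on either strand, to 4 short motifs: ACAAAG and ACAATG, cores that SOX factors bind, TTTATNG, a core of CDX and posterior HOX factors, and TGATTNAT, a HOX-PBX site.
Hoxa2 (minus strand, chr6:52164832-52165081): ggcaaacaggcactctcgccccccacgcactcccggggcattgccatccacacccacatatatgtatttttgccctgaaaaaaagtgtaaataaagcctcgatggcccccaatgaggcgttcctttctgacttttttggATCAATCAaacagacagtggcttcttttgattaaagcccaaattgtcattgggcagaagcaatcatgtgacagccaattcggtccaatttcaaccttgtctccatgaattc
Hoxd10 (plus strand, chr2:74691641-74691890): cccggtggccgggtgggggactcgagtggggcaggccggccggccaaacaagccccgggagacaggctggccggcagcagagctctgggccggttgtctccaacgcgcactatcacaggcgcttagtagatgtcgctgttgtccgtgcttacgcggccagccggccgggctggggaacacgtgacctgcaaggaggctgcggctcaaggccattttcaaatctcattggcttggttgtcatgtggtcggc
Hoxa11 (minus strand, chr6:52245811-52246060): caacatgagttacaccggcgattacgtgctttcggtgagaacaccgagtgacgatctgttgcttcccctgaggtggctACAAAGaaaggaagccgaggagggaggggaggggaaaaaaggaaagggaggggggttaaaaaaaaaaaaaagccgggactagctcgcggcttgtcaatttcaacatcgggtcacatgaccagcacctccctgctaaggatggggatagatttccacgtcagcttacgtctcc
Hoxc4 (plus strand, chr15:103034145-103034394): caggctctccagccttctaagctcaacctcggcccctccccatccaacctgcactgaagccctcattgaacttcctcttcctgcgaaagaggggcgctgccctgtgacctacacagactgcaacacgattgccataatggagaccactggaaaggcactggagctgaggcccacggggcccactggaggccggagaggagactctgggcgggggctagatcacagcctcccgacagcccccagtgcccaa
The Hoxa2 window holds 1 match to the HOX-PBX motif, whose first base lies 111 bases before the start, and the Hoxa11 window holds 1 match to ACAAAG, 172 bases before the start. The other two windows hold none of the 4 motifs. Over the Hox windows, ACAAAG occurred in 4 of 19 (21.1%, against 16.5% of all 32851 promoter windows), ACAATG in 0 (10.7% of all), TTTATNG in 1 (5.26%, against 9.81%) and TGATTNAT in 2 (10.5%, against 2.82%). A match describes letters in the window and is not evidence of binding.

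Read by level, 18 of the 33 Hox genes had a mean of at least 6.6 in at least 1 group and 15 stayed under it in all 4. NP held 11 genes over the line in cKO and the same 11 in CTR mice (33.3% each), and AF held 17 in each genotype (51.5% each), with Hoxa6 among them in cKO alone and Hoxa11 in CTR alone. For comparison, 52.1% of all genes were over the line in NP cKO, 51.6% in NP CTR, 53.0% in AF cKO and 53.7% in AF CTR. The 11 genes over the line in every group were Hoxa2, Hoxa3, Hoxa4, Hoxa5, Hoxa10, Hoxb2, Hoxb7, Hoxc9, Hoxd8, Hoxd9 and Hoxd10. Hoxb3, Hoxc6, Hoxc8, Hoxc10 and Hoxc12 were over it in both AF groups and in neither NP group. The genes nearest the line were Hoxb7 (7.03) and Hoxa6 (6.55) in NP cKO, Hoxb7 (7.21) and Hoxa6 (6.51) in NP CTR, Hoxa6 (6.68) and Hoxb5 (6.39) in AF cKO, and Hoxd10 (6.65) and Hoxb5 (6.51) in AF CTR, the first of each pair just over it and the second just under.

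By paralogue number, genes over the line came from groups 2 to 12. Neither of the 2 genes numbered 1, Hoxb1 and Hoxd1, reached 6.6 in any group, and both genes numbered 2 did in all 4 groups. Of the 4 genes numbered 13 (Hoxa13, Hoxb13, Hoxc13 and Hoxd13), which act in the tail, limb tips and urogenital tract, none reached it. Paralogues 10 had 2 of 3 genes over it in both NP groups and 3 of 3 in both AF groups. Paralogues 11 had none of 3 over it in NP cKO, NP CTR and AF cKO and 1 of 3, Hoxa11, in AF CTR. For paralogues 12 only Hoxc12 passed, in AF alone, and Hoxd12 did not. By cluster, HoxC differed most between tissues in this count, with 1 of 9 genes over the line in each NP group and 5 of 9 in each AF group, against 5 and 6 of 8 for HoxA and 2 and 3 of 9 for HoxB in NP and AF of either genotype.

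**Figure D1:**
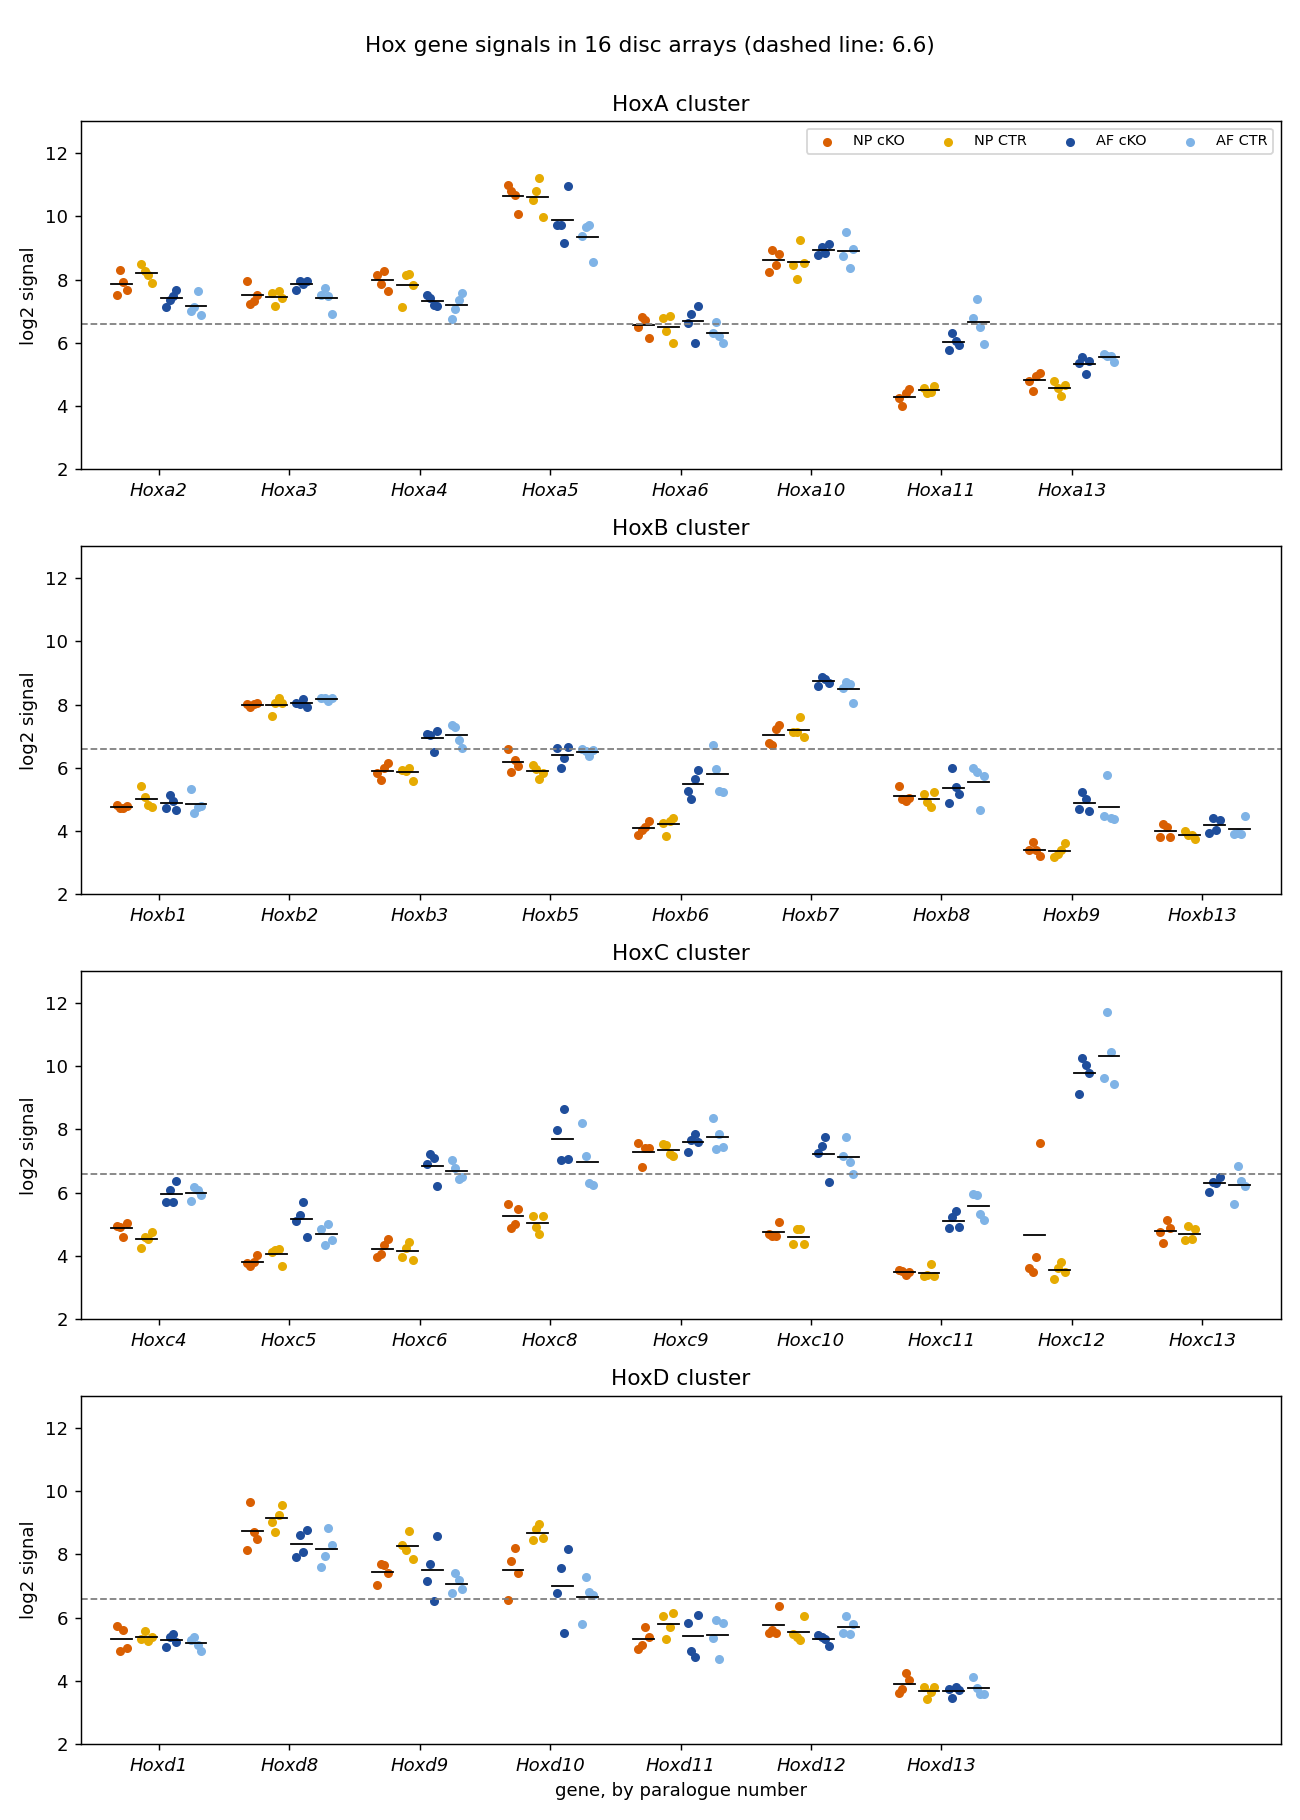
Log2 signal (y axis) of the 33 Hox genes, in 1 panel per cluster with genes ordered by paralogue number along the x axis; each dot is 1 array, each bar the mean of 4, the colours stand for NP cKO, NP CTR, AF cKO and AF CTR, and the dashed line marks 6.6. Hoxc12 sits between 9.13 and 11.71 in the 8 AF arrays and between 3.27 and 3.96 in 7 of the 8 NP arrays.

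Set against AF, NP differed in 13 of the 33 Hox genes in cKO mice at an adjusted p under 0.05 (39.4%, where 25.9% of all 22206 probe sets did) and in 19 of the 33 in CTR mice (57.6%, where 20.1% of all did). In cKO mice all 13 were lower in NP (12.6% of all probe sets were lower) and 0 were higher (13.3% of all were higher, and 16 Hox genes had an unadjusted p under 0.05, beside 38.8% of all, of which Hoxa4 and Hoxa5 were higher). In CTR mice 14 were lower in NP (10.1% of all probe sets) and 5 were higher (9.96% of all). All 9 HoxC genes had a lower mean in NP in both genotypes, and 8 of them passed in cKO and 7 in CTR, with a median difference over the cluster of -1.63 in cKO and -1.94 in CTR on the log2 scale. HoxB had 4 of 9 lower in cKO and 5 of 9 in CTR, with none higher. HoxA had 1 of 8 lower in cKO, and 2 lower and 2 higher in CTR, and HoxD had no call in cKO and 3 of 7 higher in CTR. The median over all 33 was -0.30 in cKO and -0.40 in CTR, beside 0.07 and 0.04 over all probe sets. In whole tissue, fewer cells of a type and less RNA per cell cannot be told apart. All p-values in the text come from 1 limma fit over the 16 arrays, adjusted by Benjamini-Hochberg over 22206 probe sets where called adjusted, and each SE is that of the log2 difference.

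Hoxc12, a posterior gene of the HoxC cluster, had the largest difference of the 33. Hoxc12 read 3.61, 3.49, 3.96 and 7.57 in NP cKO, 3.27, 3.62, 3.80 and 3.48 in NP CTR, 9.13, 10.26, 10.03 and 9.77 in AF cKO, and 9.64, 11.71, 10.44 and 9.43 in AF CTR. All 4 NP CTR arrays lay under 6.6 and all 8 AF arrays over it, while 1 NP cKO array, replicate 4, stood between the other NP arrays and the AF arrays. Neither AF mean reached the 95th percentile of the negative controls, averaged over the arrays of its group. NP minus AF was -5.14 on the log2 scale in cKO (SE 0.66, adjusted p = 2.86e-05) and -6.76 in CTR (SE 0.66, adjusted p = 1.01e-06). Because the NP means lie under 6.6, each fold is a bound, set by 6.6 or the dim array's own value if higher, and NP was at least 7.74-fold lower in cKO and at least 13-fold lower in CTR. Without NP cKO replicate 4 the cKO difference was -6.11 (adjusted p = 1.76e-08). In that array Dcn, a proteoglycan gene of fibrous tissue, read 18.97, against 7.39, 7.61 and 14.12 in the other NP cKO arrays and 18.63 to 19.92 in AF cKO. The 13 annulus and tendon markers, Dcn among them, averaged 8.37 there, against 6.96 to 7.61. Col1a1, another of the 13, read 9.31 there, against 8.87, 10.02 and 9.19 in the other NP cKO arrays and 15.35 to 19.37 in AF cKO. The part of fibrous tissue in the Hoxc12 signal was not tested.

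Hoxc10, a member of the lumbar paralogue group, was lower in NP as well. Hoxc10 read 4.68, 4.64, 4.64 and 5.06 in NP cKO, 4.37, 4.84, 4.84 and 4.39 in NP CTR, 7.26, 7.49, 7.77 and 6.33 in AF cKO, and 7.16, 7.76, 6.96 and 6.58 in AF CTR. No NP array came near any AF array. NP minus AF was -2.46 in cKO (SE 0.28, adjusted p = 9.1e-06, at least 1.53-fold) and -2.50 in CTR (SE 0.28, adjusted p = 5.83e-06, at least 1.43-fold). Hoxc6, a thoracic gene, followed the same order. Hoxc6 read 3.96, 4.07, 4.34 and 4.54 in NP cKO, 3.98, 4.26, 4.45 and 3.89 in NP CTR, 6.92, 7.22, 7.10 and 6.20 in AF cKO, and 7.03, 6.78, 6.43 and 6.49 in AF CTR. Its NP arrays all lay under 5 and its AF arrays all over 6. Its difference was -2.63 in cKO (SE 0.23, adjusted p = 5.13e-07) and -2.54 in CTR (SE 0.23, adjusted p = 5.77e-07). As the AF means lie close to the line, the fold bounds are small, at least 1.20-fold in cKO and at least 1.06-fold in CTR.

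Hoxc8, which sets thoracic vertebral identity in mice, varied within AF. Hoxc8 read 5.64, 4.89, 5.01 and 5.50 in NP cKO, 5.27, 4.92, 4.69 and 5.27 in NP CTR, 7.98, 7.02, 8.65 and 7.08 in AF cKO, and 8.20, 7.16, 6.31 and 6.24 in AF CTR. AF cKO replicates 1 and 3 and AF CTR replicate 1 were the high arrays, and every AF array lay over every NP array. The difference was -2.43 in cKO (SE 0.39, adjusted p = 2.77e-04, at least 2.12-fold) and -1.94 in CTR (SE 0.39, adjusted p = 0.00179, at least 1.30-fold). Hoxb3, a gene of the hindbrain and pharyngeal arches, was the HoxB member over the line in AF alone. Hoxb3 read 5.82, 5.61, 6 and 6.16 in NP cKO, 5.93, 5.91, 5.99 and 5.59 in NP CTR, 7.08, 7.04, 6.49 and 7.15 in AF cKO, and 7.36, 7.30, 6.89 and 6.64 in AF CTR. Its AF arrays all lay over its NP arrays. The difference was -1.04 in cKO (SE 0.21, adjusted p = 0.00181, at least 1.27-fold) and -1.19 in CTR (SE 0.21, adjusted p = 5.88e-04, at least 1.36-fold).

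Hoxa11, one of the genes that shape the sacrum and the forearm and lower leg, was near the line in AF. Hoxa11 read 4.25, 4.00, 4.41 and 4.54 in NP cKO, 4.58, 4.43, 4.44 and 4.63 in NP CTR, 5.78, 6.31, 6.07 and 5.94 in AF cKO, and 6.8, 7.39, 6.51 and 5.96 in AF CTR. Only AF CTR replicates 1 and 2 were over 6.6, and no NP array overlapped an AF array. In cKO the difference was -1.72 (SE 0.24, adjusted p = 7.25e-05), with both means under 6.6 and so no fold, and in CTR it was -2.14 (SE 0.24, adjusted p = 5.52e-06, at least 1.05-fold). Hoxb7, a trunk gene, was the one gene lower in NP with all 4 group means over the line. Hoxb7 read 6.79, 6.73, 7.24 and 7.35 in NP cKO, 7.12, 7.14, 7.59 and 6.98 in NP CTR, 8.59, 8.87, 8.82 and 8.68 in AF cKO, and 8.52, 8.72, 8.66 and 8.06 in AF CTR. Every NP array was under every AF array. NP minus AF was -1.72 in cKO (SE 0.21, 3.28-fold, adjusted p = 1.41e-05) and -1.28 in CTR (SE 0.21, 2.43-fold, adjusted p = 2.37e-04).

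**Figure D2:**
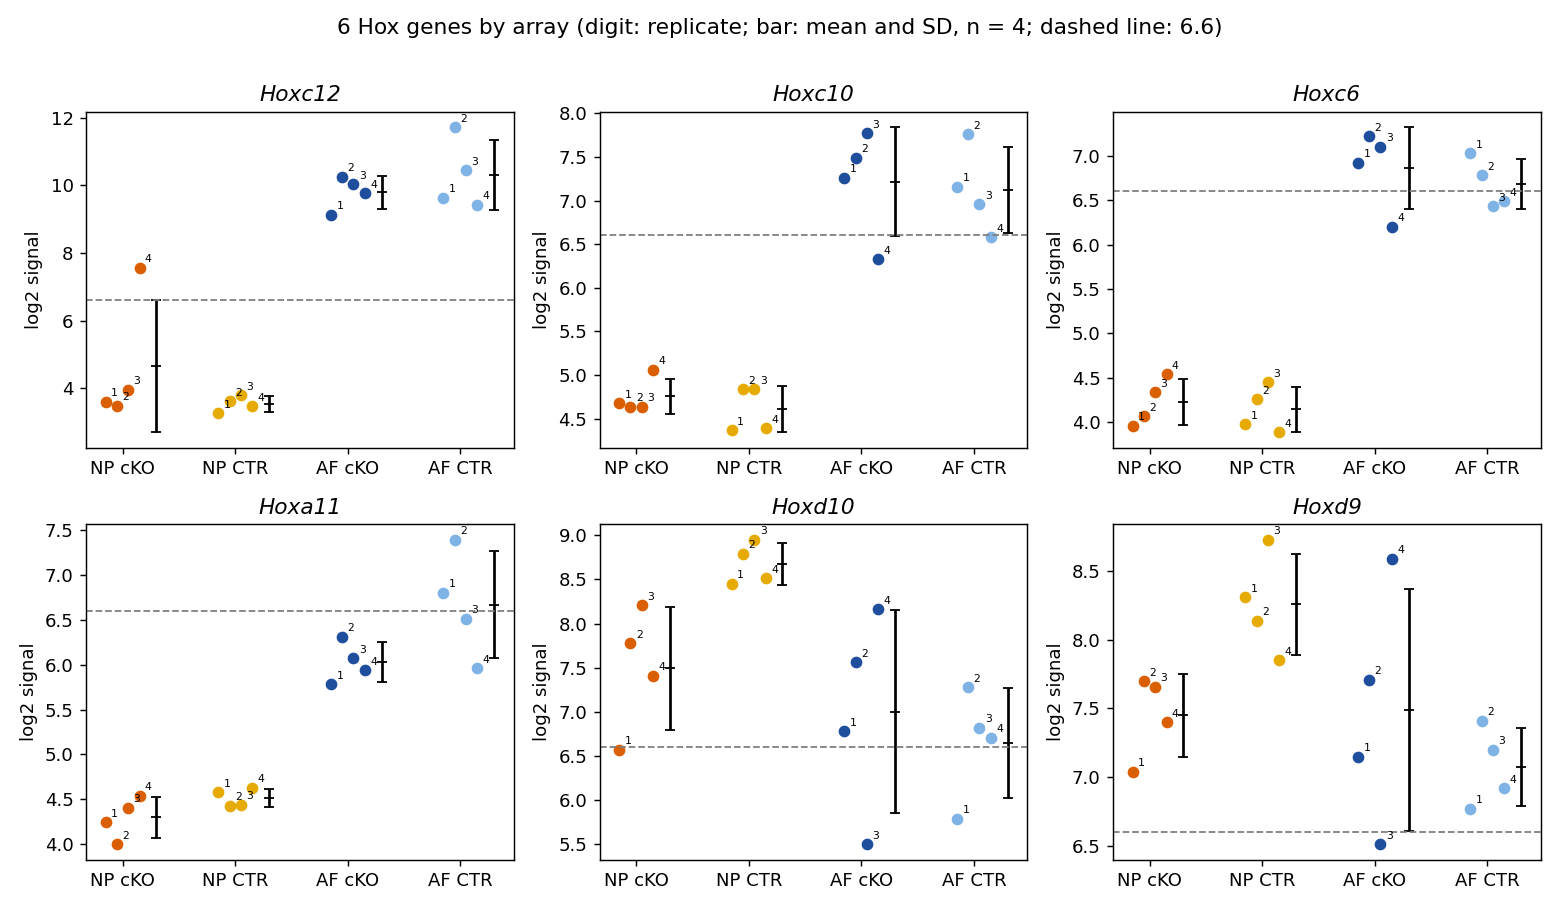
Log2 signal (y axis) of 6 Hox genes in NP cKO, NP CTR, AF cKO and AF CTR (x axis); each numbered dot is 1 animal, the bars give mean and SD (n = 4) and the dashed line marks 6.6. Hoxc12, Hoxc10, Hoxc6 and Hoxa11 are higher in AF than in NP in both genotypes, and Hoxd10 and Hoxd9 are highest in NP CTR.

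Apart from Hoxa11, 6 genes in cKO mice and 7 in CTR mice were lower in NP than in AF with both means under 6.6, so that signals at the background differed and no fold is given. Hoxc11, which lies beside Hoxc10 and Hoxc12 in numbering, was the most separate of them. Hoxc11 read 3.55, 3.52, 3.41 and 3.48 in NP cKO, 3.37, 3.41, 3.75 and 3.36 in NP CTR, 4.88, 5.23, 5.43 and 4.93 in AF cKO, and 5.95, 5.94, 5.32 and 5.13 in AF CTR. All AF arrays lay over all NP arrays, with differences of -1.63 in cKO (adjusted p = 2.92e-05) and -2.11 in CTR (adjusted p = 1.2e-06). Hoxc13, a gene of hair and nail, behaved alike. Hoxc13 read 4.76, 4.42, 5.15 and 4.88 in NP cKO, 4.50, 4.94, 4.53 and 4.84 in NP CTR, 6.02, 6.35, 6.32 and 6.50 in AF cKO, and 5.63, 6.83, 6.36 and 6.21 in AF CTR. Only AF CTR replicate 2 was over the line, and the differences were -1.49 in cKO (adjusted p = 2.12e-04) and -1.56 in CTR (adjusted p = 1.23e-04).

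Hoxc4, at the anterior end of its cluster, belongs to the same class. Hoxc4 read 4.94, 4.92, 4.59 and 5.04 in NP cKO, 4.25, 4.60, 4.53 and 4.75 in NP CTR, 5.70, 6.08, 5.71 and 6.38 in AF cKO, and 5.74, 6.17, 6.10 and 5.92 in AF CTR. Every AF array was over every NP array, and NP minus AF was -1.09 in cKO (adjusted p = 6.96e-04) and -1.45 in CTR (adjusted p = 4.54e-05). Hoxb6 was similar. Hoxb6 read 3.89, 4.05, 4.14 and 4.31 in NP cKO, 4.27, 3.84, 4.33 and 4.42 in NP CTR, 5.27, 5.03, 5.65 and 5.94 in AF cKO, and 6.73, 5.97, 5.28 and 5.22 in AF CTR. AF CTR replicate 1 alone reached the line, and the differences were -1.37 in cKO (adjusted p = 0.00208) and -1.59 in CTR (adjusted p = 6.5e-04). Hoxb9, which acts on the ribs of the thorax, was at the foot of the scale in NP. Hoxb9 read 3.39, 3.64, 3.40 and 3.21 in NP cKO, 3.17, 3.29, 3.39 and 3.62 in NP CTR, 4.71, 5.22, 5.00 and 4.64 in AF cKO, and 4.49, 5.78, 4.42 and 4.37 in AF CTR. The tissues did not overlap, with differences of -1.48 in cKO (adjusted p = 6.02e-04) and -1.40 in CTR (adjusted p = 9.32e-04).

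Hoxa13, a gene of the digits and urogenital tract, missed in cKO mice and passed in CTR mice. Hoxa13 read 4.80, 4.49, 4.96 and 5.06 in NP cKO, 4.78, 4.56, 4.33 and 4.68 in NP CTR, 5.35, 5.54, 5.01 and 5.43 in AF cKO, and 5.64, 5.58, 5.60 and 5.41 in AF CTR. NP and AF overlapped in cKO and separated in CTR, with differences of -0.50 in cKO (adjusted p = 0.0514) and -0.97 in CTR (adjusted p = 0.00104). In cKO it passed without NP cKO replicate 4 (adjusted p = 0.0467), without NP CTR replicate 3 (0.0481) and without AF cKO replicate 3 (0.0374), and with the animal as a random block (adjusted p = 0.0468). Hoxb5, which acts on the position of the shoulder girdle, was the weakest of the lower genes. Hoxb5 read 6.6, 5.87, 6.25 and 6.05 in NP cKO, 6.10, 5.97, 5.64 and 5.85 in NP CTR, 6.61, 5.98, 6.30 and 6.67 in AF cKO, and 6.58, 6.52, 6.37 and 6.55 in AF CTR. NP and AF overlapped in cKO mice, with a difference of -0.20 (adjusted p = 0.494), and did not in CTR mice, with -0.62 (adjusted p = 0.038). The CTR call did not hold when 1 array was left out, for NP CTR replicates 2, 3 and 4 (adjusted p = 0.0579, 0.0973 and 0.079) and AF CTR replicates 1, 2 and 4 (adjusted p = 0.0817, 0.0704 and 0.0715), or with the animal as a fixed block (adjusted p = 0.0882).

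Hoxc5, known with Hoxa5 for the motor neurons of the diaphragm, passed in cKO mice and not in CTR mice. Hoxc5 read 3.79, 3.68, 3.81 and 4.02 in NP cKO, 4.13, 4.20, 4.22 and 3.69 in NP CTR, 5.12, 5.31, 5.70 and 4.60 in AF cKO, and 4.86, 4.36, 5.01 and 4.51 in AF CTR. The tissues did not overlap in either genotype, and the difference was -1.36 in cKO (adjusted p = 3.74e-04) and -0.63 in CTR (adjusted p = 0.0605). The CTR difference passed without AF cKO replicate 3 (adjusted p = 0.0454), without AF cKO replicate 4 (0.0386) and without AF CTR replicate 2 (0.0454). Hoxb8 had a difference of -0.54 in CTR (adjusted p = 0.184), which was -0.84 and passed without AF CTR replicate 3 (adjusted p = 0.0231).

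In the other direction, 5 Hox genes were higher in NP CTR than in AF CTR, and all 5 had means over 6.6 in every group. Hoxd10, a lumbar paralogue, differed by the most. Hoxd10 read 6.57, 7.78, 8.21 and 7.41 in NP cKO, 8.45, 8.79, 8.95 and 8.51 in NP CTR, 6.78, 7.56, 5.50 and 8.16 in AF cKO, and 5.79, 7.28, 6.82 and 6.71 in AF CTR. The 4 NP CTR arrays lay in a narrow band over all AF CTR arrays, while NP cKO and AF cKO overlapped. In cKO the difference was 0.50 (95% interval -0.45 to 1.44, adjusted p = 0.437), with 2 of 4 animals higher in NP. In CTR it was 2.03 (SE 0.45, 4.07-fold, adjusted p = 0.00347), with 4 of 4 animals higher in NP. Hoxd9, its neighbour by number, had the same order in CTR mice. Hoxd9 read 7.04, 7.70, 7.66 and 7.40 in NP cKO, 8.31, 8.14, 8.73 and 7.85 in NP CTR, 7.15, 7.71, 6.51 and 8.59 in AF cKO, and 6.77, 7.41, 7.20 and 6.92 in AF CTR. NP CTR lay over AF CTR in every array, while the cKO groups overlapped. The difference was -0.04 in cKO (95% interval -0.73 to 0.65, adjusted p = 0.943) and 1.18 in CTR (SE 0.33, 2.27-fold, adjusted p = 0.016).

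Hoxd8 was the third HoxD gene higher in NP CTR. Hoxd8 read 8.13, 9.64, 8.71 and 8.47 in NP cKO, 9.03, 8.71, 9.25 and 9.55 in NP CTR, 7.91, 8.61, 8.07 and 8.78 in AF cKO, and 7.61, 7.94, 8.82 and 8.31 in AF CTR. The groups of CTR mice overlapped in 1 AF array, replicate 3, and NP was higher in 3 of 4 cKO animals and 4 of 4 CTR animals. The difference was 0.39 in cKO (95% interval -0.27 to 1.06, adjusted p = 0.376) and 0.97 in CTR (SE 0.32, 1.95-fold, adjusted p = 0.0377). The CTR call did not hold without NP CTR replicate 1, 3 or 4 (adjusted p = 0.0624, 0.0736 and 0.112) or without AF CTR replicate 1, 2 or 4 (adjusted p = 0.122, 0.0888 and 0.0529). The remaining HoxD genes, Hoxd1, Hoxd11, Hoxd12 and Hoxd13, lay under 6.6 in all groups and passed in neither genotype.

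Hoxa2, which patterns the hindbrain and the second pharyngeal arch, and Hoxa5, which acts on cervical and thoracic vertebrae and the lung, were the HoxA genes higher in NP CTR. Hoxa2 read 7.51, 8.31, 7.92 and 7.66 in NP cKO, 8.48, 8.26, 8.15 and 7.89 in NP CTR, 7.14, 7.37, 7.48 and 7.66 in AF cKO, and 7.02, 7.13, 7.63 and 6.88 in AF CTR. For Hoxa2, NP cKO overlapped AF cKO and NP CTR lay over AF CTR in every array, with differences of 0.44 in cKO (95% interval -0.02 to 0.90, adjusted p = 0.149) and 1.03 in CTR (SE 0.22, 2.04-fold, adjusted p = 0.00257). Hoxa5 read 10.99, 10.81, 10.67 and 10.07 in NP cKO, 10.51, 10.79, 11.20 and 9.98 in NP CTR, 9.71, 9.74, 9.16 and 10.95 in AF cKO, and 9.37, 9.67, 9.71 and 8.57 in AF CTR. For Hoxa5 the same held, except that the cKO overlap came from AF cKO replicate 4 alone. Its cKO difference was 0.75 (SE 0.35, adjusted p = 0.124), or 1.10 without that array (adjusted p = 0.0178). Its CTR difference was 1.29 (SE 0.35, 2.45-fold, adjusted p = 0.014), and the adjusted p was 0.0519 without AF CTR replicate 4.

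Of the genes over the line in all groups, 5 passed in neither genotype. Hoxa4, a gene of the cervical vertebrae, missed narrowly in both. Hoxa4 read 8.13, 7.86, 8.28 and 7.63 in NP cKO, 7.13, 8.16, 8.17 and 7.83 in NP CTR, 7.5, 7.42, 7.19 and 7.17 in AF cKO, and 6.75, 7.07, 7.36 and 7.58 in AF CTR. NP cKO lay over AF cKO in every array, by 0.65 (SE 0.24, 1.57-fold, adjusted p = 0.0568, or 0.0414 with the animal as a fixed block), and in CTR the difference was 0.63 (SE 0.24, adjusted p = 0.0756) with 1 NP array inside the AF range. In cKO it passed without NP cKO replicate 4, NP CTR replicate 1 or AF CTR replicate 1 (adjusted p = 0.0455, 0.0319 and 0.0497), and in CTR without NP CTR replicate 1 or AF CTR replicate 4 (adjusted p = 0.0152 and 0.0478). Hoxa10, which with its paralogues keeps the lumbar vertebrae free of ribs, had differences of -0.34 in cKO (95% interval -0.90 to 0.22) and -0.33 in CTR (95% interval -0.89 to 0.24). Hoxa10 read 8.23, 8.93, 8.45 and 8.82 in NP cKO, 8.47, 8.02, 9.25 and 8.52 in NP CTR, 8.77, 9.02, 8.85 and 9.14 in AF cKO, and 8.74, 9.51, 8.36 and 8.96 in AF CTR. Its 4 groups overlapped throughout.

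Hoxb2, a hindbrain gene, had the smallest SE, 0.16, of the genes over the line in all groups. Hoxb2 read 8.01, 7.91, 8.02 and 8.05 in NP cKO, 7.63, 8.04, 8.19 and 8.05 in NP CTR, 8.04, 8.03, 8.16 and 7.92 in AF cKO, and 8.21, 8.19, 8.10 and 8.20 in AF CTR. Its groups overlapped, and NP minus AF was -0.04 in cKO (95% interval -0.39 to 0.31) and -0.20 in CTR (95% interval -0.54 to 0.15). Hoxa3, which is needed for the thymus and parathyroid, and Hoxc9, a gene of the lower thorax and the one HoxC gene over the line in NP, also overlapped between tissues. Hoxa3 read 7.96, 7.24, 7.33 and 7.5 in NP cKO, 7.57, 7.18, 7.63 and 7.42 in NP CTR, 7.67, 7.94, 7.86 and 7.96 in AF cKO, and 7.51, 7.74, 7.48 and 6.92 in AF CTR. Hoxc9 read 7.58, 6.8, 7.40 and 7.41 in NP cKO, 7.53, 7.52, 7.23 and 7.16 in NP CTR, 7.28, 7.66, 7.87 and 7.59 in AF cKO, and 8.36, 7.39, 7.85 and 7.44 in AF CTR. For Hoxa3 the difference was -0.35 in cKO (95% interval -0.79 to 0.09) and 0.04 in CTR (95% interval -0.40 to 0.48). For Hoxc9 it was -0.30 in cKO (95% interval -0.79 to 0.19) and -0.40 in CTR (95% interval -0.89 to 0.09). Hoxa6 lay on the line, with means of 6.55 in NP cKO, 6.51 in NP CTR, 6.68 in AF cKO and 6.30 in AF CTR.

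The cKO and CTR comparisons of NP with AF used different animals but 1 estimate of spread, and 12 Hox genes passed in both with the same direction, all lower in NP. These 12 were 92.3% of the cKO calls and 63.2% of the CTR calls, beside 50.9% and 65.6% over all probe sets. The 5 genes higher in NP CTR were not among them, and whether the tissue difference itself changed with genotype is tested further on, as the difference of the changes. Groups without overlap numbered 2 higher and 13 lower Hox genes in NP cKO against AF cKO, where 14.3% and 12.5% of all probe sets had none, and 4 higher and 15 lower in NP CTR against AF CTR, where 11.3% and 11.2% had none.

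**Figure D3:**
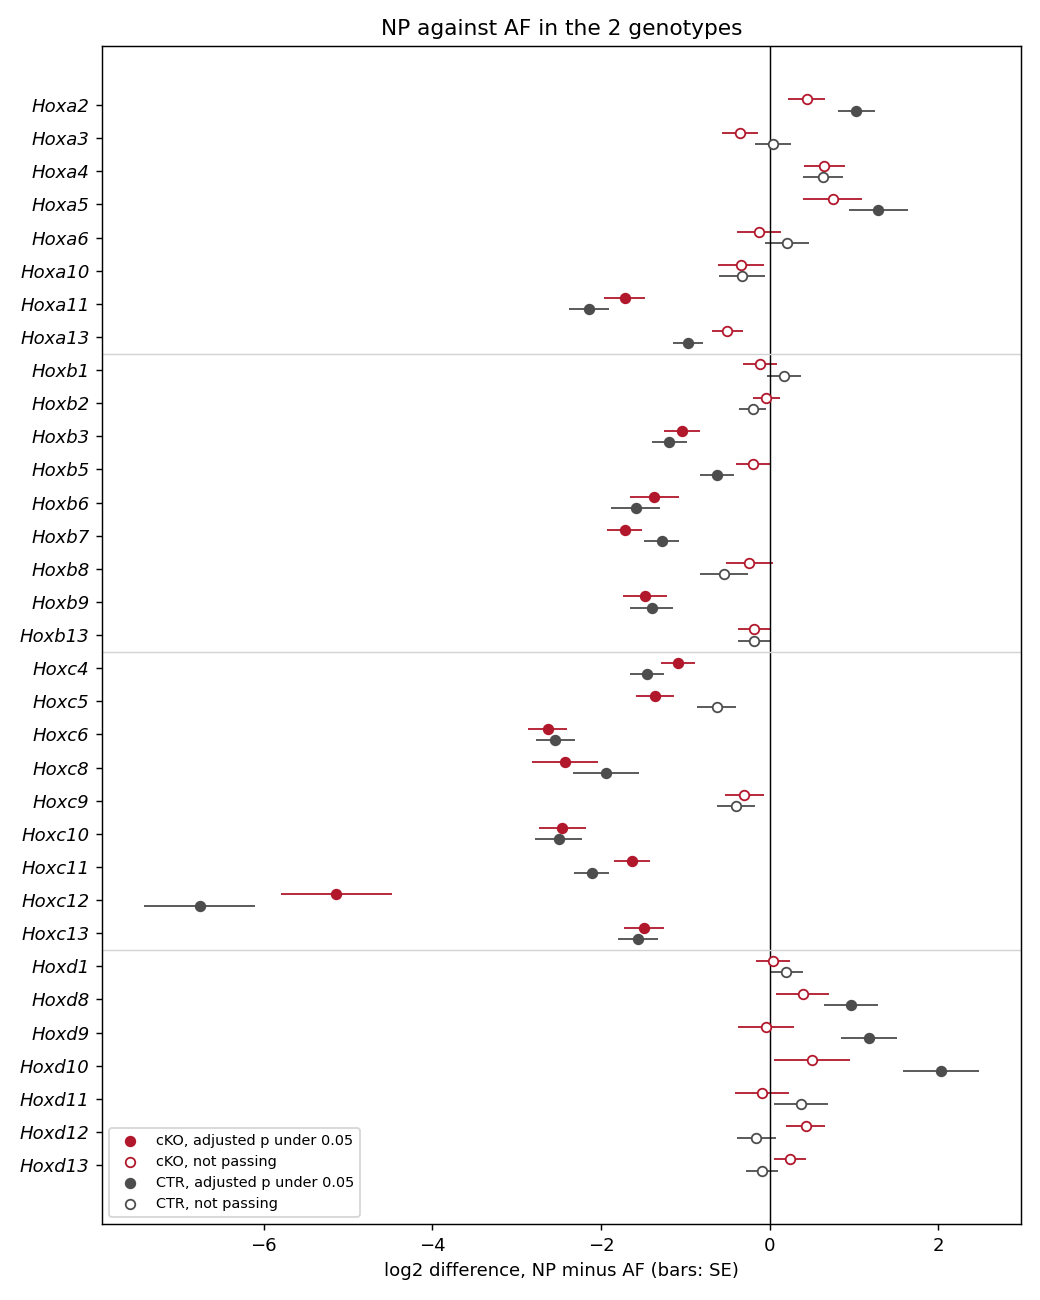
Log2 difference NP minus AF (x axis, bars are SE) of the 33 Hox genes (y axis, by cluster and paralogue number) in cKO mice (red) and CTR mice (grey); filled dots passed an adjusted p of 0.05 and open dots did not. All 9 HoxC genes lie left of 0 in both genotypes, and Hoxd10 is farthest right, at 2.03 in CTR mice.

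Markers of other cell types differed between NP and AF along with these genes. Between NP cKO and AF cKO, where 12.6% of all probe sets were lower in NP, so were 12 of 13 annulus and tendon markers, 8 of 13 cartilage markers, 10 of 13 osteoblast and osteoclast markers, 9 of 11 endothelial markers, 13 of 15 muscle markers and 11 of 12 neutrophil and marrow markers. Between NP CTR and AF CTR, where 10.1% of all were lower, 11 of 13 annulus and tendon markers, 11 of 13 cartilage markers, 9 of 13 osteoblast and osteoclast markers and 9 of 11 endothelial markers were lower in NP, with 2 of 15 muscle markers and 1 of 12 neutrophil and marrow markers. Bone markers averaged 5.63 to 5.75 in NP cKO, 5.62 to 5.72 in NP CTR, 7.90 to 12.45 in AF cKO and 7.54 to 10.97 in AF CTR, with 11 of 13 under 6.6 in either NP group, 3 in AF cKO and 2 in AF CTR. Endothelial markers averaged 5.33 to 5.45 in NP cKO, 5.24 to 5.45 in NP CTR, 7.06 to 8.21 in AF cKO and 6.52 to 8.20 in AF CTR, with 9, 10, 2 and 3 of 11 under 6.6 in that order. The 9 markers of epidermis, measured because Hoxc12 and Hoxc13 are known from skin appendages, averaged 6.35 to 6.57 in NP cKO, 6.40 to 6.56 in NP CTR, 6.11 to 6.37 in AF cKO and 6.17 to 6.67 in AF CTR, with 7 of 9 under 6.6 in each group. The part of the other cell types in the Hox differences was not tested.

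Within AF some Hox genes were extreme in single arrays that were also extreme in marker means. A link between the 2 was not tested. The bone markers were highest in AF cKO replicate 3 (12.45) and AF CTR replicate 1 (10.97), which also had the highest Hoxc8 of their groups (8.65 and 8.20) and the lowest Hoxd10 (5.50 and 5.79) and Hoxd9 (6.51 and 6.77). The same arrays were the highest of their groups in cartilage markers (11.54 and 14.6) and in neutrophil and marrow markers (13.01 and 11.15). They were also the highest in erythroid markers (8.97 and 7.30), macrophage markers (8.18 and 8.07) and endothelial markers (8.21 and 8.20). They were the lowest of their groups in the NP and notochordal markers (11.54 and 11.67). The 2 arrays split in fat markers, where AF cKO replicate 3 was the lowest of its group (6.40) and AF CTR replicate 1 the highest (8.29). In annulus and tendon markers AF cKO replicate 3 was the highest of its group (12.45) and AF CTR replicate 1 (11.24) was not. AF cKO replicate 1, next in bone markers (9.76), lay between the extremes in Hoxc8 (7.98), Hoxd10 (6.78) and Hoxd9 (7.15). AF CTR replicate 2, next in bone markers (9.91), had a Hoxc8 of 7.16 but the highest Hoxd10 (7.28) and Hoxd9 (7.41) of its group. The part of any of these cell types was not tested. Muscle markers, 15 in number, were highest in AF cKO replicates 2 (9.92) and 4 (9.42), where other AF cKO arrays had 6.52 and 6.91 and AF CTR arrays 6.47 to 7.26, and these arrays had the highest Hoxd10 of AF cKO (7.56 and 8.16). In AF CTR the highest muscle mean was that of replicate 3 (7.26), whose Hoxd10 (6.82) was under that of replicate 2 (7.28). Of the muscle markers, 12 of 15 were under 6.6 in either NP group, 2 in AF cKO and 7 in AF CTR. The 12 neutrophil and marrow markers averaged 5.68 to 7.81 in NP cKO, 6.29 to 7.73 in NP CTR, 9.21 to 13.01 in AF cKO and 6.33 to 11.15 in AF CTR. Without AF cKO replicates 2 and 4, 15 Hox genes passed between NP and AF in cKO and 20 in CTR. Without AF CTR replicate 1 and AF cKO replicate 3, 14 passed in cKO and 17 in CTR. The shares of all probe sets under these removals were not computed, so the shifts in count cannot be read as particular to Hox genes.

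**Figure D4:**
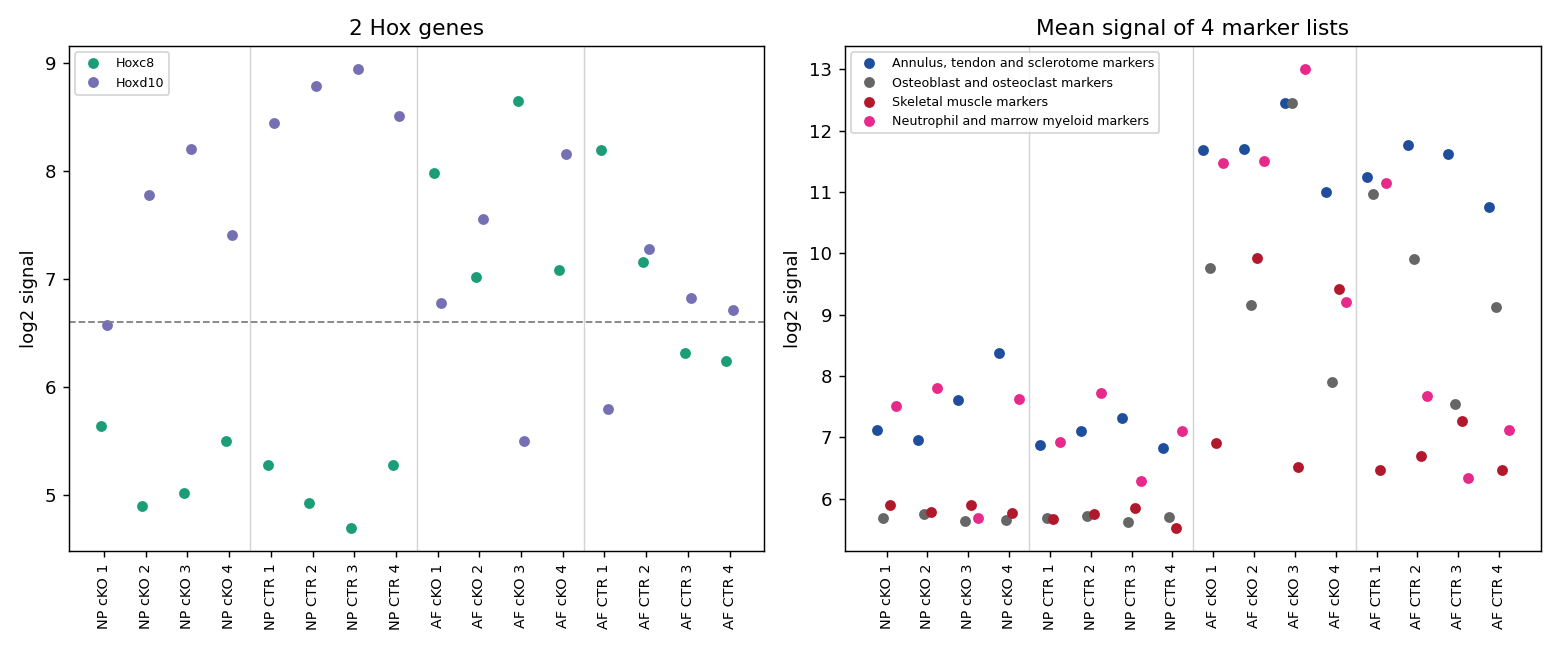
Log2 signal (y axes) by array (x axes, the groups in the order NP cKO, NP CTR, AF cKO, AF CTR): left, Hoxc8 and Hoxd10 with a dashed line at 6.6, and right, the mean of 4 marker lists. Hoxc8 peaks and Hoxd10 dips in AF cKO replicate 3 and AF CTR replicate 1, the 2 arrays with the highest bone marker means of their groups.

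The comparison of cKO with CTR asks whether Sox9 loss reached the Hox genes within days. No Hox gene passed an adjusted p of 0.05 in limma, in NP or AF. In NP 0 of 33 passed (0.122% of all probe sets did) and 2 had an unadjusted p under 0.05 (4.58% of all). In AF 0 of 33 passed (0.0991% of all) and 4 had an unadjusted p under 0.05 (10.6% of all). The log2 differences of the 33 genes ran from -1.18 to 1.11 in NP, with a median of 0.04, and from -0.64 to 0.71 in AF, with a median of 0.06, and the medians over all probe sets were 0.00 and -0.03. These comparisons share the CTR arrays with the tissue comparison above.

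In NP the genes of smallest p were Hoxd10 and Hoxd9, both of which had been high in NP CTR. Every NP cKO array of Hoxd10 (6.57 to 8.21) lay under every NP CTR array (8.45 to 8.95), with a difference of -1.18 (SE 0.45, 95% interval -2.13 to -0.24, 2.27-fold, adjusted p = 0.886). Hoxd9 likewise had 7.04 to 7.70 in NP cKO and 7.85 to 8.73 in NP CTR, a difference of -0.81 (SE 0.33, 95% interval -1.5 to -0.11, 1.75-fold, adjusted p = 0.946). These were the 2 Hox genes whose NP groups did not overlap, both lower in cKO (1.82% of all probe sets were lower without overlap) with none higher (1.11% of all). With the thresholds that the labels name, a fold of 1.75 or more with an unadjusted p under 0.05, Hoxd10 alone of the 33 would pass, beside 1.18% of all probe sets, and Hoxd9 falls just short in fold before rounding. Next in order came Hoxc4 (0.34, SE 0.20, adjusted p = 1), Hoxc12 and Hoxd11. Hoxc12 had 1.11 (SE 0.66, adjusted p = 1), which was 0.14 without NP cKO replicate 4. Hoxd11, a paralogue of Hoxa11, lay under the line in all groups. Hoxd11 read 5.01, 5.14, 5.71 and 5.39 in NP cKO, 6.05, 5.34, 5.70 and 6.16 in NP CTR, 5.83, 4.95, 4.75 and 6.09 in AF cKO, and 5.37, 5.91, 4.69 and 5.82 in AF CTR. Its NP difference was -0.50 (SE 0.32, adjusted p = 1).

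In AF the 4 genes with an unadjusted p under 0.05 were Hoxa11, Hoxc11, Hoxc5 and Hoxa3. Hoxa11 averaged 6.02 ± 0.22 in AF cKO and 6.67 ± 0.59 in AF CTR (SD, n = 4 each), a difference of -0.64 (SE 0.24, adjusted p = 0.37) with overlapping arrays. Hoxc11 had -0.47 (SE 0.21, adjusted p = 0.446) and Hoxc5 had 0.49 (SE 0.23, adjusted p = 0.462), both under the line in both groups. Hoxa3 averaged 7.86 ± 0.13 in AF cKO and 7.41 ± 0.35 in AF CTR (SD, n = 4 each), a difference of 0.44 (SE 0.21, 1.36-fold, adjusted p = 0.465). Hoxc8 followed, with 0.71 (SE 0.39, 1.63-fold, adjusted p = 0.534). The one Hox gene whose AF groups did not overlap was Hoxd12, under the line in both, with -0.39 (adjusted p = 0.547), where 2.54% of all probe sets were lower without overlap and 1.79% higher.

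The difference between the NP change and the AF change passed for no Hox gene and for none of the 22206 probe sets (0%), with an unadjusted p under 0.05 for 3 Hox genes (6.74% of all). Hoxd9 had -1.22 (SE 0.47, adjusted p = 0.732) and Hoxd10 -1.53 (SE 0.64, adjusted p = 0.732), so the tissue difference of these genes was smaller in cKO than in CTR mice without passing the test. Hoxc5 had -0.73 (SE 0.32, adjusted p = 0.732). Hoxa2 (-0.59, SE 0.31) and Hoxd12 (0.59, SE 0.32) came next, both at an adjusted p of 0.741. The intervals of Hoxd10 (95%, -2.86 to -0.20) and of Hoxc12 (1.62, 95% interval -0.34 to 3.59) are wide. The Hoxc12 value was 0.65 (SE 0.55, adjusted p = 0.867) without NP cKO replicate 4.

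**Figure D5:**
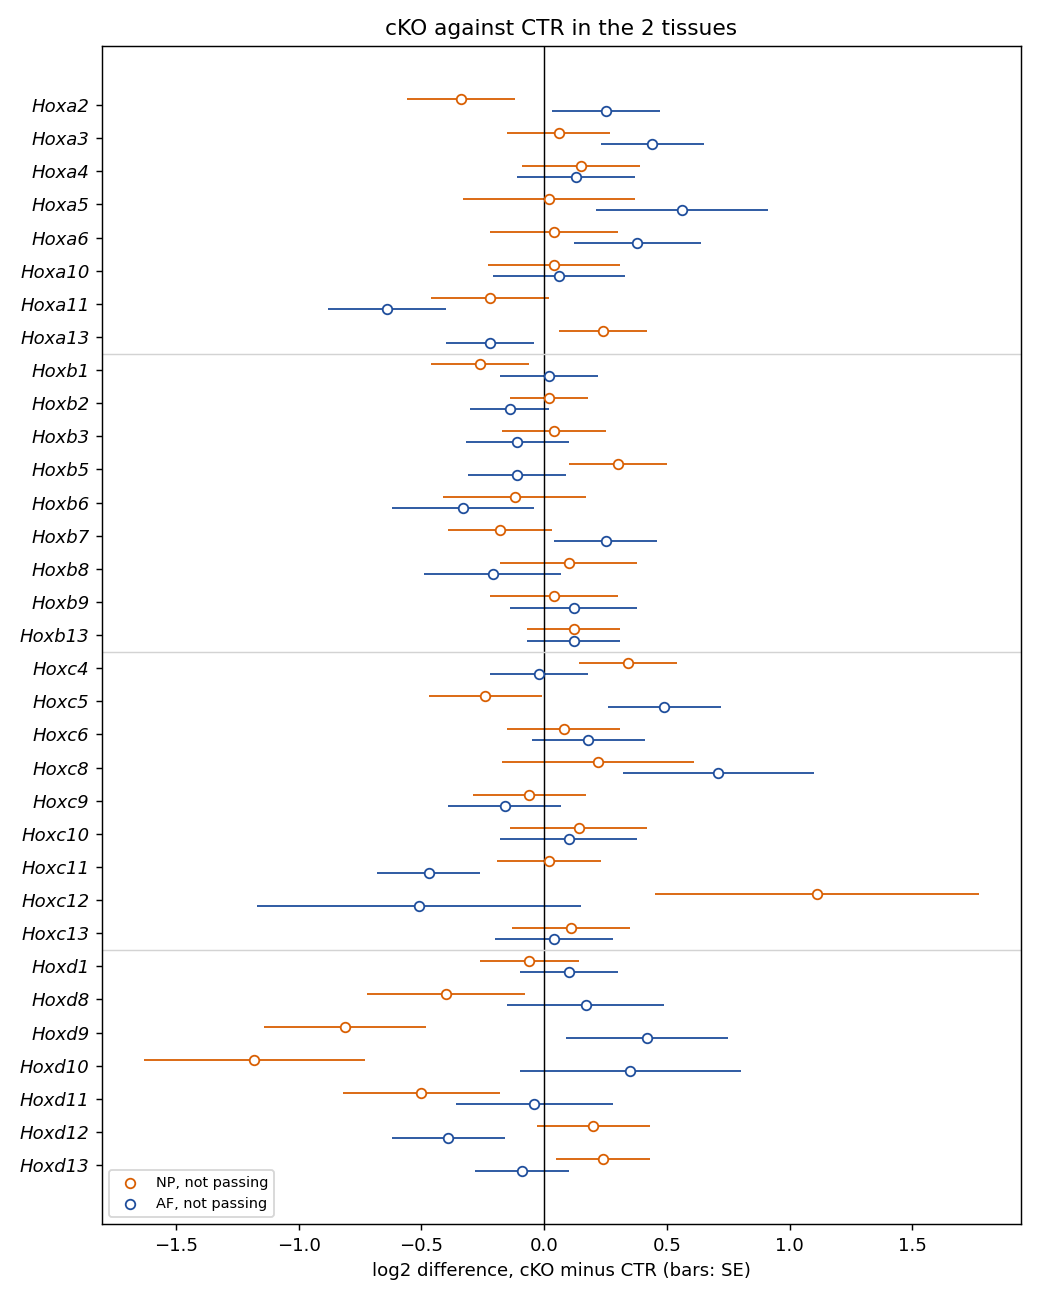
Log2 difference cKO minus CTR (x axis, bars are SE) of the 33 Hox genes (y axis, by cluster and paralogue number) in NP (orange) and AF (blue); all dots are open because none passed an adjusted p of 0.05. Hoxd10 (-1.18) and Hoxd9 (-0.81) in NP are farthest left and Hoxc12 in NP (1.11) is farthest right.

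HOX proteins bind DNA with partners of the PBX, MEIS and PKNOX families, and 8 of 9 such cofactors were measured. Between NP cKO and AF cKO 4 of the 8 passed, beside 25.9% of all probe sets, with Meis2 higher in NP (0.89 on the log2 scale, adjusted p = 0.0208) and Pknox1 (-0.97, at least 1.74-fold since its NP cKO mean was 6.43, adjusted p = 0.00613), Pbx2 (-0.92, adjusted p = 0.0175) and Pknox2 (-0.74, adjusted p = 0.0382) lower. Between NP CTR and AF CTR 3 passed, beside 20.1% of all. Pbx3 averaged 10.36 ± 0.34 in NP CTR and 9.09 ± 0.38 in AF CTR (2.42-fold, adjusted p = 0.0021), and Meis2 8.62 ± 0.55 in NP CTR and 7.67 ± 0.37 in AF CTR (1.94-fold, adjusted p = 0.0164), both higher in NP. Pbx2 was lower, with 7.35 ± 0.53 in NP CTR and 8.14 ± 0.34 in AF CTR (1.73-fold, adjusted p = 0.0437, SD and n = 4 for each mean). None passed between cKO and CTR in NP or AF.

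Of 28 genes that set Hox expression, among them the CDX factors, the growth factor GDF11 and the Polycomb and Trithorax proteins, 26 were measured. Between NP cKO and AF cKO 7 of the 26 passed (26.9%) and between NP CTR and AF CTR 6 (23.1%), close to the 25.9% and 20.1% of all probe sets. In cKO 6 were lower in NP, led by Gdf11 (-1.44, adjusted p = 1.26e-05), whose means lie under 6.6 in every group, Men1, the gene of the Trithorax-group protein menin (-2, adjusted p = 2.98e-04), and the Polycomb genes Ring1 (-0.78, adjusted p = 0.00842) and Phc1 (-1.11, adjusted p = 0.0148). A seventh, the Polycomb gene Cbx8, was higher (0.62, adjusted p = 0.0238). The NP cKO means of Men1 (6.43) and Ring1 (6.24) and the AF cKO mean of Cbx8 (6.10) lay under 6.6, so their folds are bounds, at least 3.24-fold, 1.34-fold and 1.09-fold. In CTR all 6 were lower in NP, led by Gdf11 (-1.21, adjusted p = 7.03e-05), the Polycomb ligase Rnf2 (-0.92, adjusted p = 0.00718), Men1 (-1.19, adjusted p = 0.015) and the Polycomb methyltransferase Ezh2 (-0.91, adjusted p = 0.0216). The median difference of the 26 was -0.39 in cKO and -0.33 in CTR, beside 0.07 and 0.04 over all probe sets, and none passed between cKO and CTR.

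Of 25 non-coding transcripts and neighbours of the clusters 10 were measured. Between NP cKO and AF cKO 4 of the 10 passed, beside 25.9% of all probe sets. Between NP CTR and AF CTR 3 passed, beside 20.1% of all. Whether these counts exceed the shares over all probe sets was not tested. Skap2, which borders the HoxA cluster, was higher in NP, by 0.83 on the log2 scale in cKO (adjusted p = 0.00284) and by 0.96 in CTR (adjusted p = 9.33e-04), with 12.03 ± 0.23 in NP CTR and 11.07 ± 0.22 in AF CTR (SD, n = 4 each). Hoxa11os, transcribed from the strand opposite Hoxa11, was lower in NP alongside Hoxa11, with -1.07 in cKO (adjusted p = 0.00638) and -1.27 in CTR (adjusted p = 0.00194) and all means under 6.6. The labels do not say whether the probes tell the strands apart. Smug1, a DNA repair gene beyond the HoxC cluster, was lower too, with -0.78 in cKO (adjusted p = 0.00604) and -0.72 in CTR (adjusted p = 0.0114), also under 6.6 in all groups. In cKO Evx1, a homeobox gene at the end of HoxA, was higher in NP by 0.68 (adjusted p = 0.0237) with both means under 6.6. None of the 10 passed between cKO and CTR.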

How the data were processed

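Each animal gave 1 NP and 1 AF sample, dissected from its lumbar and caudal discs, and RNA from RNeasy kits was converted with a WT Plus kit (GeneChip). The deposited log2 signals come from sst-RMA (signal space transformation RMA), per the labels, and the submitters' processing notes name Transcriptome Analysis Console (version: not given in the sources used here). Filters that the labels name, a detection p and a p under 0.05 and a fold of 1.75, had not been applied to the table. Values ran from 2.43 to 19.93, and array medians from 6.66 to 6.89.

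After 6640 controls had been set aside from 28846 probe sets, the tests covered 22206. A single gene symbol was assigned to 19572 of those tested. The remaining 2634 had no single symbol assigned. Deposited values were not normalized again. limma 3.58.1 in R 4.3.3 fitted 4 group means and 5 contrasts, which were cKO minus CTR within each tissue, NP minus AF within each genotype, and the change in NP less that in AF. The fit was also run on simulated data with changes put in and independent normal noise in each array. That run checks the code and does not model animal pairs or the varied cell types of these arrays. Calls needed an adjusted p (Benjamini-Hochberg, all probe sets tested) under 0.05.

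Every called Hox gene is named, with the 5 of smallest p where fewer than 3 passed, and every Hox gene over 6.6 in some group. Up to 4 called members per list of cofactors, regulators and neighbours are named by smallest p. The members, 14 gene lists and alternatives were chosen with earlier results of these data known. Sample titles give each animal a code, which pairs its NP with its AF. Deviations of such pairs from their group means correlated with r from -0.293 to 0.348 over all probe sets, with 3 of 8 pairs over 0.1. Over the 18 Hox genes above the line in some group, r ran wider, from -0.633 in cKO animal 3 to 0.585 in cKO animal 1. Alternatives were other normalizations, filters, weights, thresholds, blocks and left-out arrays. RefSeq promoter windows (GRCm38.p6) were searched for exact motif matches on both strands.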

Additional observations from a re-analysis of the deposited data

Results flagged for a closer look

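Of 72 groups of 4 arrays (18 Hox genes over the line in some group, 4 groups each), 3 held an array far from the other three. Chance alone gives such a flag in about 1 of 20 groups. Hoxc12 in NP cKO replicate 4 read 7.57, where the other NP cKO arrays had 3.49 to 3.96. Hoxc10 in the same array read 5.06, against 4.64 to 4.68, still under the line. Hoxb3 in AF cKO replicate 3 read 6.49, against 7.04 to 7.15 in the other AF cKO arrays. Beside these values, NP cKO replicate 4 had the highest mean of the 13 annulus and tendon markers, Dcn among them, in NP (8.37). AF cKO replicate 3 had the highest mean of the 13 bone markers (12.45). In AF CTR the highest bone mean was that of replicate 1 (10.97), whose Hoxb3 was the highest of its group (7.36). The part of these markers in the Hox values was not tested.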

How the results depend on the processing

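Of 182 counts recomputed under an alternative, 173 stayed within 1.5 times the reported count, and of 1329 recomputed gene results 1306 kept their direction and side of the threshold, 23 lost or gained the call and 0 reversed. With the labels' thresholds 1 Hox gene passed for cKO minus CTR in NP, lower in cKO, beside 1.18% of all probe sets. For the difference of the changes 2 passed, both with a negative difference. The share of all probe sets at those thresholds was not computed there, so the 2 cannot be judged against it. In that comparison 6.74% of all had an unadjusted p under 0.05. A filter on dim probe sets left 18 Hox genes, of which 7 passed for NP minus AF in cKO and 12 in CTR, since fewer genes were tested. With the 95th percentile of the negative controls as the line, 1 gene in NP cKO, 1 in NP CTR, 0 in AF cKO and 0 in AF CTR lay over it, and 11 in AF cKO had every array at 6.6 or more. Without 1 array, 13 to 15 Hox genes passed in cKO and 17 to 20 in CTR for NP minus AF, 0 for each of the other 3 comparisons, and the genes over the line were 11 to 12 in NP cKO, 11 to 12 in NP CTR, 16 to 17 in AF cKO and 15 to 17 in AF CTR. NP and AF of 1 animal are paired. With the animal as a random block (consensus correlation 0.0353) 15 passed in cKO and 19 in CTR, and as a fixed block 14 and 18. With the replicate number as a block, which CTR and cKO animals do not share, 13 and 20 passed. All 3 blocks gave 0 calls for the difference of the changes, and those by random animal and by number gave 0 for cKO minus CTR in NP and in AF. Hoxa4 also passed in both genotypes after median centring (adjusted p = 0.0355 in cKO and 0.0309 in CTR) and after a second quantile normalization (0.0206 and 0.0324), which also called Hoxc5 in CTR (0.0421) and Hoxa13 in cKO (0.0113). Hoxb5 in CTR was not called after median centring (0.0772) or with array weights (0.0522), nor was Hoxd8 with array weights (0.062). Except where given, shares of all probe sets under the alternatives were not computed. The cause of these shifts was not tested.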
